A study of Mus musculus with 4 samples.

Results

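The Krüppel-like factor (KLF) genes were followed between d2 and d4 of cardiogenic differentiation of ES-E14TG2a cells, an established WT mouse embryonic stem cell (mESC) line. Of the 55487 genes in the table, 10 were taken by their Ensembl identifiers, version dropped: Klf1, Klf2, Klf3, Klf4, Klf5, Klf6, Klf7, Klf9, Klf10 and Klf13. The d4 cells, 2 libraries, had been dissociated after 48 h of serum-free culture and reaggregated for 40 h with human Activin A at 8 ng/ml, BMP4 at 0.5 ng/ml and VEGF at 5 ng/ml. The d2 cells, also 2 libraries, had only the 48 h of serum-free culture. Day, reaggregation and the added factors therefore cannot be told apart. RNA was taken from whole cultures of this single line. By the study's methods the 2 replicates came from 2 independent differentiation experiments. The labels do not say which d2 and d4 libraries share an experiment.

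KLF proteins are transcription factors that bind CACCC and GC-rich boxes through C2H2 zinc fingers at their carboxyl end. Their other parts recruit either activators or repressors, so members that read the same sites can act in opposite ways. KLF2, KLF4 and KLF5 sustain naive mouse pluripotency, where LIF acts on Klf4 through STAT3. KLF2 and KLF4 are also flow-induced factors of quiescent endothelium, downstream of MEKK3, ERK5 and MEF2 factors. KLF1 is the erythroid factor that activates globin genes.

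Total counts lay between 11397439 and 16851485 per library. Values are depth-scaled counts (CPM) with TMM factors, with SD over 2 libraries, and 3 counts in a library stand for 0.177 to 0.254 CPM. Days were compared by edgeR's quasi-likelihood test over the 14932 genes that passed a filter at 0.5 CPM, and a gene was called at a Benjamini-Hochberg adjusted p under 0.01. All 10 KLF genes passed the filter. The mESC label was checked against 7 pluripotency markers, which summed to 25.2 and 23.4 CPM at d4, against 1340 and 996 CPM at d2. Most of the d2 sum was Pou5f1, with 1000 and 721 CPM, and Utf1 had 0 counts in both d4 libraries. Of the 7, 5 were lower at d4 and 2 did not pass the test. The 4 primed epiblast markers, all lower at d4, summed to 224 and 203 CPM at d4, against 4550 and 3890 CPM at d2. The d2 cells thus also carried RNA typical of primed epiblast. In contrast, 10 endothelial markers summed to 1290 and 996 CPM at d4, against 23.6 and 19.4 CPM at d2. The 7 primitive erythroid markers summed to 403 and 271 CPM at d4, against 6.46 and 6.07 CPM at d2. Of these d4 sums, Kdr alone held 601 and 463 CPM, and the globin Hbb-bh1 307 and 180 CPM. The d4 cultures thus held RNA of several cell types, and in such bulk samples fewer cells of a type and less RNA per cell cannot be told apart. With 2 libraries on each day, no exact permutation test (two-sided) of 1 gene can go under p = 0.333, so the calls rest on the spread shared across genes.

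The promoters of Klf1, Klf2 and Klf4 are shown first, because these genes had the largest changes of the family in either direction. Each is 300 bases of RefSeq sequence on GRCm38.p6, from 250 bases before the transcript start, and 8 of the 10 KLF genes had one. Capitals mark the CACCC box on either strand, the motif of MEF2 factors and the site of GATA factors in a form that begins with A or with T. The windows lie at chr8:84901732-84902031 on the plus strand for Klf1, at chr8:72318812-72319111 on the plus strand for Klf2, and at chr4:55532426-55532725 on the minus strand for Klf4.
Klf1 promoter: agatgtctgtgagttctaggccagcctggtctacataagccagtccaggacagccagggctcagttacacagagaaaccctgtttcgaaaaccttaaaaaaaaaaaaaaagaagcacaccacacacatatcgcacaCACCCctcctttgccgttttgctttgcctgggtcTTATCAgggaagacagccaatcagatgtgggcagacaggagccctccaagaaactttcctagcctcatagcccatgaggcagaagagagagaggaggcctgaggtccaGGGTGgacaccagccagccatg
Klf2 promoter: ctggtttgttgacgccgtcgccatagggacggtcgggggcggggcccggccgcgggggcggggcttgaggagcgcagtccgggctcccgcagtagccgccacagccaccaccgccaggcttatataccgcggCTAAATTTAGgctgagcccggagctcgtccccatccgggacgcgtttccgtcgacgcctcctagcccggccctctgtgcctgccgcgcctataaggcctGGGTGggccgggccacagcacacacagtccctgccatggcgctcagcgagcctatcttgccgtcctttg
Klf4 promoter: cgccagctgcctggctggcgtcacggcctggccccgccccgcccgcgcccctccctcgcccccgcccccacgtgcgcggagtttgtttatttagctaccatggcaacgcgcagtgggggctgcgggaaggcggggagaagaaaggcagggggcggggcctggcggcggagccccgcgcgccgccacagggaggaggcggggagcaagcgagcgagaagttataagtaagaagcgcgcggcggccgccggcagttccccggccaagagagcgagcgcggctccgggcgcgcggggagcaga
The Klf2 window holds a MEF2 motif whose first base lies at -118, with the start base as 1, a motif found in 3.19% of all 32851 RefSeq promoters of this length. It also holds 1 CACCC box, read as GGGTG, at -19. The Klf1 window holds CACCC boxes at -114 and 29 and, at -80, the reverse complement of TGATAA. On one strand or the other, a CACCC box stands in 57.5% of all promoters. The letters of the TGATAA form stand in 9.05% and were searched only after the sequence had been seen. The form AGATAA, searched on both strands and found in 11.2% of all promoters, was in none of the 8 windows. The Klf4 window holds no CACCC box and 40 CpG dinucleotides, against 32 in Klf2 and 3 in Klf1. Its 4 GC boxes, with the letters GGGCGG on either strand, compare with 2 in Klf2 and none in Klf1, and such a box was in 35.7% of all promoters. The ETS letters GGAA, again on both strands, were in 7 of the 8 windows and in 96% of all promoters. No motif overlapped one of another kind in the Klf1, Klf2 or Klf4 window, but the Klf4 GC boxes at -217 and -212 share a base. A match by letters is a description of the sequence only.

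Between d2 and d4, Klf1, Klf4 and Klf6 rose and Klf2 and Klf9 fell, while Klf3, Klf5, Klf7, Klf10 and Klf13 did not pass the test. This makes 5 of 10 called, against 24.3% of all genes tested, with 3 higher (12.9% of all genes) and 2 lower (11.3% of all genes). For 9 of the 10, both d4 libraries lay outside both d2 libraries, which was so for 70.9% of all genes tested. The exception was Klf5. The median log2 fold change of the 10 was 0.26, against -0.027 over the 14932 genes. Once either d2 library was dropped, d2 had 1 library left, and edgeR's 5 calls did not hold. Without d2 replicate 1, edgeR's log2 fold changes were 4.92 for Klf1, -4.1 for Klf2, 3.23 for Klf4, 1.06 for Klf6 and -2.47 for Klf9. Without d2 replicate 2 they were 4.05, -4.42, 4.46, 1.39 and -2.15 in the same order.

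**Figure D1:**
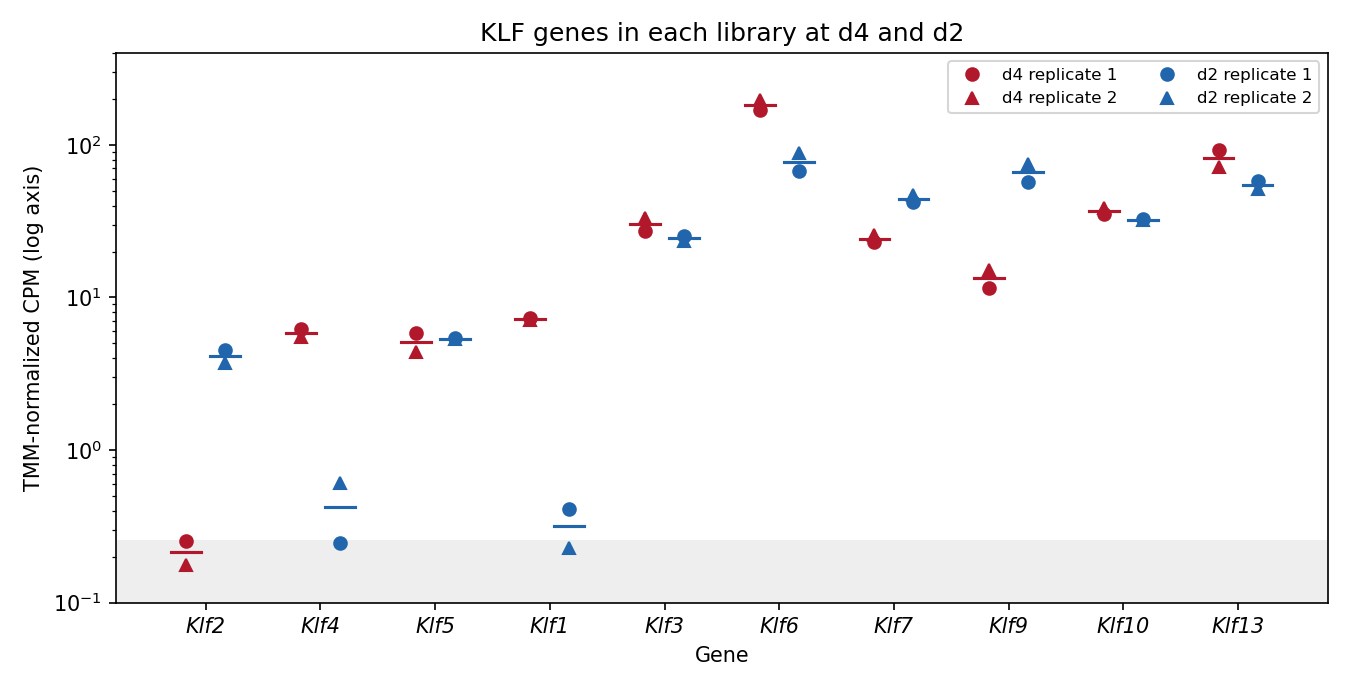
TMM-normalized CPM (log axis) of the 10 KLF genes in each d4 library (red) and d2 library (blue), with circles for replicate 1, triangles for replicate 2 and bars at the mean of the 2 libraries. The grey band ends at 0.254 CPM, the value of 3 counts in the smallest library, and the d4 libraries of Klf2 and single d2 libraries of Klf4 and Klf1 lie in it.

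Of the pluripotency KLF genes, Klf2 fell, Klf4 rose and Klf5 did not pass the test. Klf2 (ENSMUSG00000055148.7, chromosome 8 from 72319033 to 72321656 of GRCm38, plus strand) had 3 and 3 counts at d4, against 55 and 49 at d2. In CPM these were 0.254 and 0.177 at d4, against 4.50 and 3.72 at d2, so that the d4 libraries sat at the level of 3 counts and far under both d2 libraries. The log2 fold change was -4.23 (standard error 0.44, edgeR adjusted p = 0.000464), and normalized counts were 19.7-fold lower at d4 (95% counting interval 8.73 to 54.8, exact binomial). Intervals of this kind cover counting error only. Without d2 replicate 1 the adjusted p was 0.025 in edgeR and 0.0222 in DESeq2, and without d2 replicate 2 it was 0.0227 and 0.0102, with log2 fold changes of -4.42 to -4.10. Over all 19 alternatives, the adjusted p of Klf2 ranged from 1.29e-15 to 0.025 and the call held in 15.

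Klf4 (ENSMUSG00000003032.8, chromosome 4 from 55527143 to 55532466, minus strand) had 73 and 93 counts at d4, against 3 and 8 at d2. This corresponds to 6.18 and 5.47 CPM at d4, against 0.245 and 0.607 CPM at d2. Both d4 libraries were above both d2 libraries, and the d2 libraries differed from each other by a few counts. Klf4 rose by a log2 fold change of 3.72 (standard error 0.44, edgeR adjusted p = 0.000832), a ratio of 13.3 (95% counting interval 7.24 to 27.2). Its log2 fold change was 3.23 without d2 replicate 1 and 4.46 without d2 replicate 2, where edgeR's adjusted p was 0.0263 and 0.0227. DESeq2 called it with any library left out (highest adjusted p 0.0056), and over the 19 alternatives the adjusted p lay between 8.37e-16 and 0.0263.

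Klf5 (ENSMUSG00000005148.8, chromosome 14 from 99298691 to 99315036), which acts beside KLF2 and KLF4 in naive mESC and in epithelia, had 69 and 75 counts at d4, against 66 and 70 at d2. Its values of 5.84 and 4.41 CPM at d4 enclosed the 5.40 and 5.32 CPM at d2. The log2 fold change was -0.07 (standard error 0.29, edgeR adjusted p = 0.869), and the counting interval of the d4 to d2 ratio, 0.733 to 1.19, leaves room for a modest change either way. The sign turned to 0.13 in edgeR and 0.12 in DESeq2 when d4 replicate 2 was left out.

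Levels of different genes were set beside each other only per kb of exon. Klf2, Klf4 and Klf5 together summed to 3.29 and 2.74 CPM per kb at d4, against 3.55 and 3.24 at d2, so the lower d2 sum lay below the higher d4 sum. Within this sum the leading gene changed. Klf4 took 61.7% and 65.5% at d4, against 2.26% and 6.16% at d2. Klf2 took 4.18% and 3.49% at d4, against 68.5% and 62.3% at d2. The share of Klf5 was 34.2% and 31.0% at d4 and 29.2% and 31.6% at d2. These shares describe the libraries and were not tested.

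**Figure D2:**
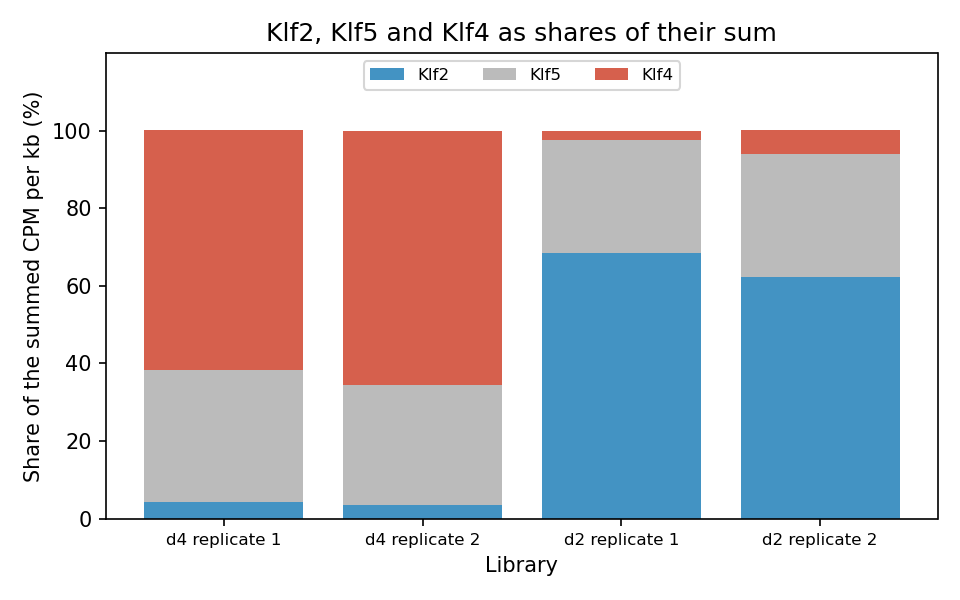
Share (%) of the summed CPM per kb of Klf2, Klf5 and Klf4 held by each gene (stacked bars) in the 2 d4 libraries (left) and the 2 d2 libraries (right). Klf4 holds 61.7% and 65.5% at d4, Klf2 holds 68.5% and 62.3% at d2, and Klf5 stays between 29.2% and 34.2% in all 4 libraries.

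Of 18 genes of the LIF and naive pluripotency circuit, 17 were tested: 9 were lower, 5 were higher and 3 did not pass. Over all genes tested, 11.3% were lower and 12.9% higher. The median log2 fold change of the list was -1.66. Pou5f1 (OCT4), Nanog and Zfp42 fell, with log2 fold changes of -7.71, -4.63 and -5.02 (edgeR adjusted p from 3.96e-05 to 0.000164), the same direction as Klf2. Tbx3, a T-box factor of both naive mESC and mesoderm, rose by 9.14 (adjusted p = 3.96e-05). Also higher (and picked with their values known) were the LIF receptor chains Lifr and Il6st, the kinase Jak1 and Stat3. Stat3 had 75.5 and 59.8 CPM at d4, against 14.2 and 10.3 CPM at d2, a log2 fold change of 2.47 (standard error 0.26, edgeR adjusted p = 0.000511), the direction of Klf4. Socs3, a feedback inhibitor induced by STAT3, was also named after its value was seen. It had 3.05 and 2.65 CPM at d4, against 2.21 and 2.43 CPM at d2 (log2 fold change 0.29, edgeR adjusted p = 0.501). The study's methods name LIF in the maintenance medium and do not name it in the differentiation media. The part of LIF signalling in the rise of Klf4 was not tested.

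Klf2 and Klf4 are also the vascular KLF genes, and genes of their pathway in endothelium were set beside them. A list of 16 genes was set around the CCM complex, MEKK3, ERK5 and MEF2 factors, and it also held the endothelial markers Kdr, Cdh5 and Pecam1. Of the 16, 6 were higher, 10 did not pass and none was lower, with a median log2 fold change of 0.86. Over all genes tested, 12.9% were higher and 11.3% lower. Heg1, the membrane anchor of the CCM complex, had 17.9 and 14.8 CPM at d4, against 1.96 and 1.52 CPM at d2 (log2 fold change 3.23, standard error 0.30, edgeR adjusted p = 0.000307). Kdr, Cdh5 and Pecam1, receptors and junction proteins of endothelial cells in the same list, rose by 9.62, 10.32 and 5.19 on the log2 scale, with Cdh5 at only 1 and 1 counts at d2. Map3k3, which encodes MEKK3, and Mef2c were the other higher genes, with log2 fold changes of 1.49 and 3.72 (named after their values were seen). Mapk7, which encodes ERK5 and was also named after its value was seen, did not pass (log2 fold change 0.45, edgeR adjusted p = 0.188). It had 61.7 and 46.2 CPM at d4, against 44.2 and 34.8 CPM at d2. Whether the pathway was active was not tested.

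A further list held genes tied to KLF2 or KLF4 in endothelial cells, including some that these factors repress. Of its 18 tested genes, 10 were higher, 1 was lower and 7 did not pass (all genes tested: 12.9% higher and 11.3% lower). The median log2 fold change of the list was 3.04, or 2.62 with Edn1, picked out for its 0 counts at d2, set to its bound. Cdh5, Tie1 and Tek, which are also endothelial markers here, and the junction gene Esam led it. Tek had 142 and 115 CPM at d4, against 7.44 and 6.00 CPM at d2. Nos3, the endothelial nitric oxide synthase, and Thbd (thrombomodulin), both textbook KLF2 targets named after their values were seen, rose, the opposite direction to Klf2. Nos3 had 16.4 and 11.3 CPM at d4, against 2.62 and 1.52 CPM at d2, and Thbd 67 and 52 counts at d4, against 0 and 2 counts at d2. Klf4 itself is in this list. The lower gene, named after its value was seen, was Thbs1, an antiangiogenic matrix protein, at -1.53 (adjusted p = 0.00971). Of the 10 endothelial markers, 9 were tested and 8 were higher, with Sox7 at 0 counts at d2. Emcn was under the filter, with 2 and 3 counts at d4 and 0 counts at d2. The part of endothelial RNA in the rise of Klf4 was not tested, and Klf2 moved against these markers.

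Klf1, the erythroid member (ENSMUSG00000054191.9, chromosome 8 from 84901928 to 84905291, plus strand), had the largest rise of the family. It had 86 and 121 counts at d4, against 5 and 3 at d2, which gave 7.28 and 7.12 CPM at d4, against 0.409 and 0.228 CPM at d2. The d4 libraries nearly coincided and stood well above both d2 libraries. The log2 fold change was 4.47 (standard error 0.40, edgeR adjusted p = 0.000271), a ratio of 22.8 (95% counting interval 11.4 to 53.5). Without d2 replicate 1 it was 4.92 and without d2 replicate 2 it was 4.05, with edgeR adjusted p-values of 0.0202 and 0.0218, while DESeq2 called it with any library left out (highest adjusted p 0.00049). Over its 19 alternatives the adjusted p lay between 6.9e-21 and 0.0218.

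Targets and partners of KLF1 rose in the same libraries, with exceptions. Of 26 genes listed, 21 were tested, with 12 higher, 3 lower and 6 not past the test. This stands against 12.9% higher and 11.3% lower among all genes tested. The median log2 fold change of the list was 4.70, or 4.05 with genes at 0 counts at d2 set to their bound. Hbb-bh1, an embryonic beta-like globin, had 307 and 180 CPM at d4, against 0.164 and 0.607 CPM at d2. Alas2, the erythroid enzyme of heme synthesis, had 25.6 and 22.8 CPM at d4 and 0 counts at d2. Tal1 and Nfe2, factors that work beside KLF1 in erythroid cells, rose by 8.01 and 6.04 on the log2 scale. Further genes were picked with their values known. The adult beta globin Hbb-bt had 19 and 15 counts at d4, against 0 and 0 at d2 (edgeR adjusted p = 0.00623), and the band 3 gene Slc4a1, with 5 and 7 counts at d4, against 1 and 1 at d2, did not reach the filter. The globin copies share sequence, and as reads that mapped to more than 1 place were not counted, their values are uncertain.

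Among the lower genes of that list were Bcl11a and Dmtn, picked with their values known. Bcl11a, a repressor of embryonic globins in definitive red cells, had 1.27 and 1.77 CPM at d4, against 25.9 and 28.6 CPM at d2 (log2 fold change -4.14, edgeR adjusted p = 0.000116). Dmtn, dematin of the red cell skeleton, had a log2 fold change of -1.59 (adjusted p = 0.0085). Of the 7 primitive erythroid markers all were higher at d4, with Alas2 the only one at 0 counts at d2, and their part in the rise of Klf1 was not tested.

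Klf6 (ENSMUSG00000000078.7, chromosome 13 from 5861482 to 5870394), a broadly expressed activator, had the highest mean level per kb of the 10 genes on both days, with libraries that overlapped those of Klf9 at d2. It had 168 and 197 CPM at d4, against 67.1 and 87.8 CPM at d2, with the groups apart. The log2 fold change was 1.24 (standard error 0.22, edgeR adjusted p = 0.00487), or 2.36-fold. Its call held in 14 of the 19 alternatives, the fewest of the 5 called genes. The adjusted p was 0.064 in edgeR and 0.117 in DESeq2 without d2 replicate 1 (log2 fold changes of 1.06 and 1.04), 0.0437 and 0.012 without d2 replicate 2 (1.39 and 1.43), and 0.0119 in DESeq2 without d4 replicate 2 (1.11). Over the 19 alternatives it ranged from 1.97e-07 to 0.117.

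Klf9 (ENSMUSG00000033863.2, chromosome 19 from 23141226 to 23168134), a factor induced by glucocorticoid and thyroid hormone in other tissues, fell. It had 11.6 and 15.2 CPM at d4, against 57.3 and 74.4 CPM at d2, and the lowest d2 library was still above both d4 libraries. The log2 fold change was -2.30 (standard error 0.25, edgeR adjusted p = 0.000603), 4.91-fold lower at d4. Without d2 replicate 1 and without d2 replicate 2, edgeR's adjusted p was 0.027 and 0.0323 at log2 fold changes of -2.47 and -2.15, while DESeq2 called it with any library left out (highest adjusted p 0.000992; 6.92e-15 to 0.0323 over 19 alternatives). Of 7 tested genes among 9 hormone receptors and hormone-response genes, 2 were higher, 5 did not pass and none was lower. Among all genes tested, 12.9% were higher and 11.3% lower. The higher ones in this list were Thra, a thyroid hormone receptor, at 1.99 and Tsc22d3 (GILZ), a glucocorticoid target, at 1.44. Fkbp5, another such target, was at -0.88 (adjusted p = 0.0184) and the receptor gene Nr3c1 at -0.58 (adjusted p = 0.198, named after its value was seen), neither past the test.

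Klf7 (ENSMUSG00000025959.13, chromosome 1 from 64029447 to 64122282), known for its part in neurons, had 23.0 and 25.5 CPM at d4, against 42.1 and 46.9 CPM at d2. The groups were apart, but the log2 fold change of -0.87 (standard error 0.21, edgeR adjusted p = 0.0147) missed the threshold. DESeq2 on the same 4 libraries called it (adjusted p = 0.00433), and so did upper-quartile factors (0.00983) and the fit without a filter (0.00704). With 1 library left out its adjusted p ranged from 0.0268 to 0.351, and it was called in 6 of the 19 alternatives. The 5 neuroectoderm markers, all lower at d4, summed to 70.0 and 60.3 CPM at d4, against 239 and 202 CPM at d2, and their part in the values of Klf7 was not tested.

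Klf3, Klf10 and Klf13 had differences that did not pass the test. Klf3 (ENSMUSG00000029178.14, chromosome 5 from 64803388 to 64832901), a repressor that binds CtBP and is itself a KLF1 target in red cells, had 27.3 and 33.4 CPM at d4, against 25.2 and 23.5 CPM at d2 (log2 fold change 0.32, standard error 0.22, edgeR adjusted p = 0.29). Klf10 (ENSMUSG00000037465.10, chromosome 15 from 38291463 to 38300706), an early TGF-beta response gene, had 35.1 and 38.8 CPM at d4, against 32.8 and 32.0 CPM at d2 (0.19, standard error 0.20, adjusted p = 0.488). Klf13 (ENSMUSG00000052040.10, chromosome 7 from 63886351 to 63938915), a GC-box factor of heart and T cells, had 93.2 and 72.0 CPM at d4, against 58.0 and 51.7 CPM at d2 (0.59, standard error 0.22, adjusted p = 0.0732). For all 3 the d4 libraries lay above the d2 libraries, as they did for 35.8% of all genes tested (below them for 35.2%). The simple counting intervals of the d4 to d2 ratio were 1.14 to 1.41 for Klf3, 1.05 to 1.26 for Klf10 and 1.38 to 1.58 for Klf13, and these do not hold the spread between libraries.

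**Figure D3:**
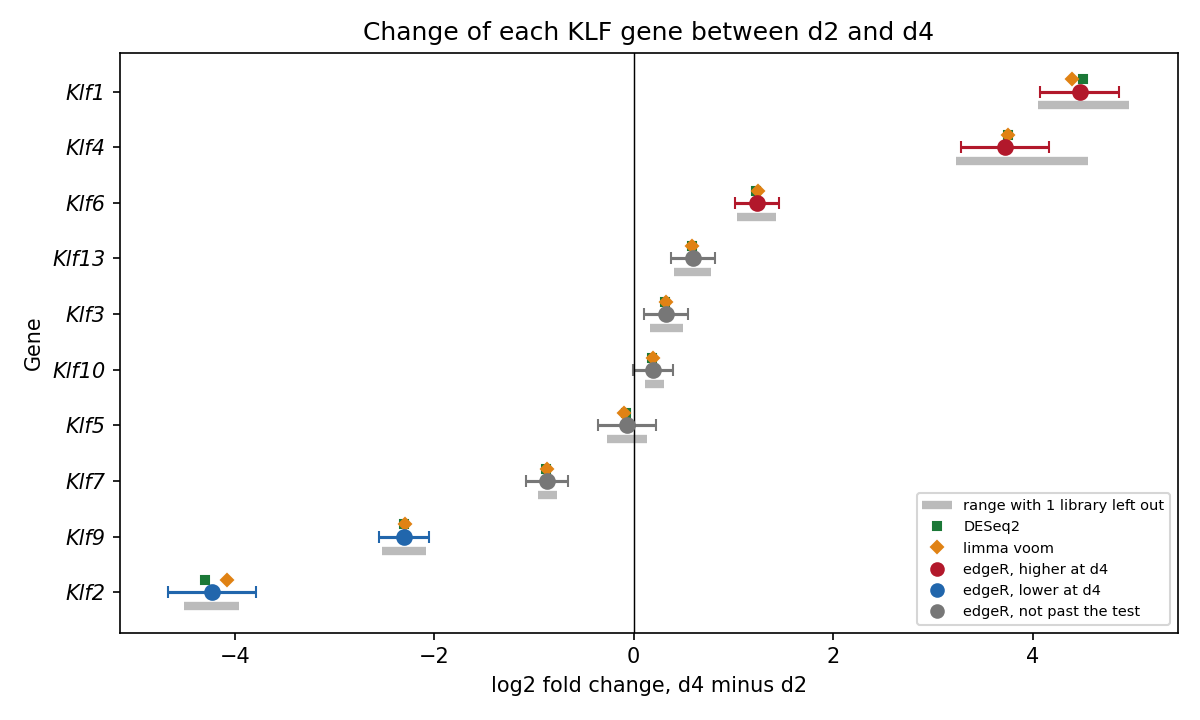
log2 fold change (d4 minus d2, x axis) of each KLF gene, with edgeR's standard error as bars and its call by colour (red higher, blue lower, grey not past the test). Green squares and orange diamonds give DESeq2 and limma voom, and grey strips the range with 1 library left out. The range of Klf5 alone, from -0.27 to 0.13, crosses 0.

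Of 14 genes of TGF-beta and Activin signalling and response, the inputs of Klf10, 6 were higher, 1 was lower and 7 did not pass. Over all genes tested, 12.9% were higher and 11.3% lower. The feedback inhibitor Smad7 had 65.4 and 64.6 CPM at d4, against 5.81 and 3.11 CPM at d2, a log2 fold change of 3.87, and the NODAL antagonist Lefty2 rose by 2.83, whereas Klf10 did not pass. The lower one was the corepressor Tgif1, at -1.63 (adjusted p = 0.00136). Of 16 corepressors and coactivators bound by KLF proteins, none was higher, 2 were lower and 14 did not pass. Ctbp2, a corepressor that KLF3 recruits, had 79.6 and 80.5 CPM at d4, against 325 and 289 CPM at d2 (log2 fold change -1.94, edgeR adjusted p = 0.000401). The acetyltransferase Kat2b was the other, at -1.09 (adjusted p = 0.00925), while Hdac1 at -0.67 and Sin3a at -0.74 did not pass. Of 13 tested ubiquitin ligases and peptidases, Mylip rose by 2.80, Fbxo32 fell by 1.73 on the log2 scale and 11 did not pass. Neither this list nor that of the corepressors and coactivators had a larger called share than the 24.3% of all genes tested.

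Among the other KLF genes, 6 of 7 were tested and 1, Klf14, was higher, against 12.9% higher among all genes tested. Klf14 had 7.96 and 6.18 CPM at d4, against 0.572 and 0.683 CPM at d2 (log2 fold change 3.47, standard error 0.36, edgeR adjusted p = 0.000485). Klf8, a CtBP-binding repressor close to KLF3, had a log2 fold change of 1.23 that missed the threshold (adjusted p = 0.0111). Klf15 and Klf12 were at -0.56 and -0.46. Klf17, named after its counts were seen, had 0 and 0 counts at d4, against 2 and 4 at d2, and was under the filter. Of the 9 SP factors, which bind the same GC boxes, 5 were tested. Sp6 fell by 2.29 (edgeR adjusted p = 0.00165), where 11.3% of all genes tested were lower. The other 4 did not pass, among them Sp2 at -0.45, Sp4 at -0.53 and the abundant Sp1 at -0.22 (edgeR adjusted p = 0.428).

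**Figure D4:**
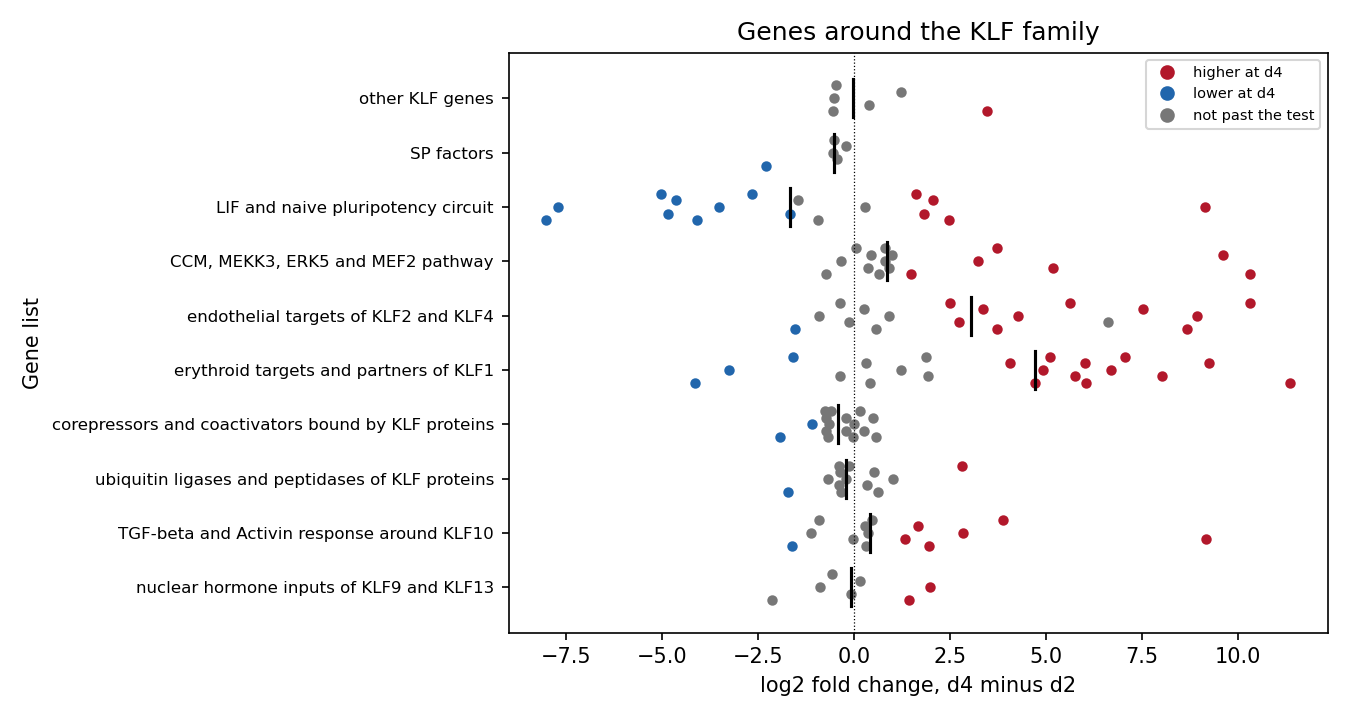
log2 fold change (d4 minus d2, x axis) of the tested genes of 10 lists around the KLF family, coloured red for higher at d4, blue for lower and grey for not past the test, with a black line at each list's median. The erythroid and endothelial lists have medians of 4.70 and 3.04 and the corepressor list of -0.42; fitted values of genes without counts in a day depend on the prior count.

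Per kb of exon, Klf6 led at d4 with 41.6 ± 4.63 CPM per kb (SD, n = 2), 53.6% of the summed mean level of the 10 genes. Klf13 (11.0 ± 1.99), Klf10 (8.84 ± 0.617) and Klf1 (4.71 ± 0.0738) followed it, each apart from its neighbours. Klf7 (2.98), Klf9 (2.78) and Klf3 (2.70) came next, and their libraries overlapped. Klf4 (1.91 ± 0.164), Klf5 (0.986 ± 0.194) and Klf2 (0.117 ± 0.0296) were last, again each apart. At d2, Klf6 (17.6 ± 3.34) and Klf9 (13.7 ± 2.51) led with overlapping libraries and held 30.6% and 23.8% of the sum. Klf10 (7.75) and Klf13 (7.28) overlapped, Klf7 (5.47) stood apart, and Klf2 (2.22) and Klf3 (2.17) overlapped. Klf5 (1.03) stood above Klf1 (0.208) and Klf4 (0.140), whose libraries overlapped. Klf1 thus stood at rank 4 at d4 and at rank 9 at d2, and Klf2 at rank 10 at d4 and at rank 6 at d2. The 10 genes summed to 74.8 and 80.3 CPM per kb at d4, against 54.0 and 61.2 at d2. With the longest transcript as the length, Klf3 moved up to rank 4 at d4, above Klf1, and to rank 6 at d2, above Klf2.

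**Figure D5:**
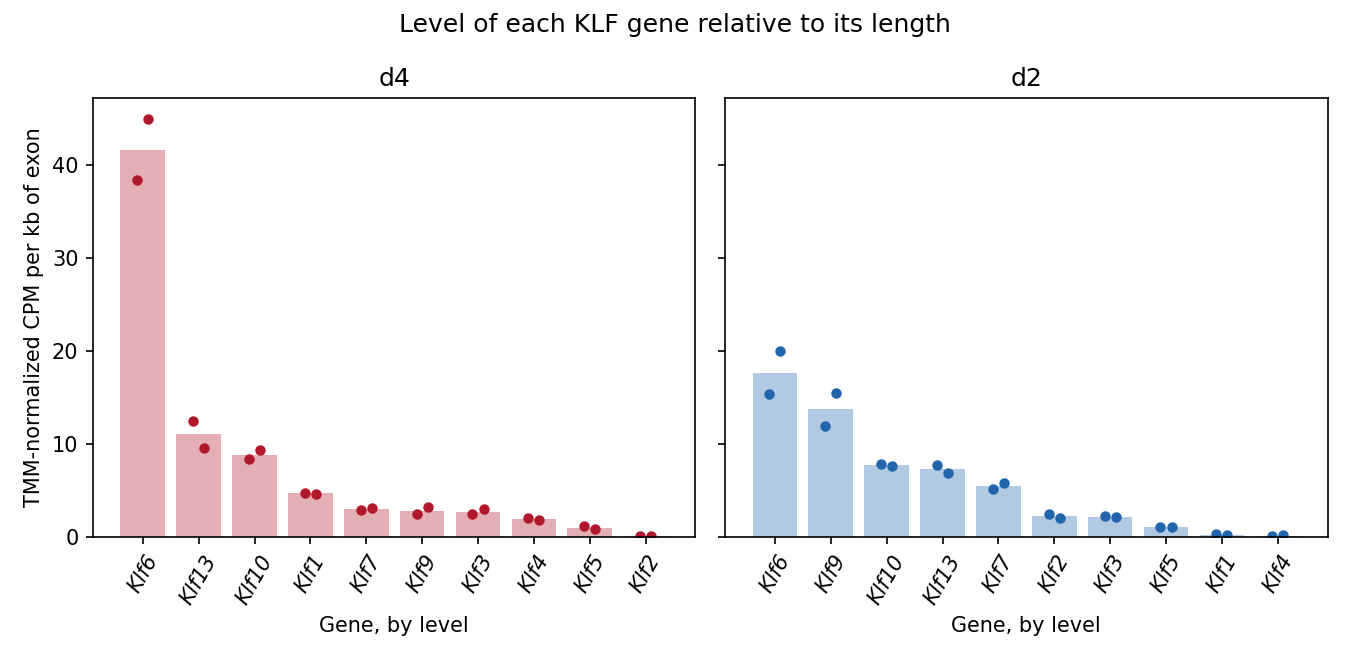
TMM-normalized CPM per kb of exon (y axis) of the 10 KLF genes in order of their mean level at d4 (left, red) and d2 (right, blue), with bars from 0 to the mean of 2 libraries and points for the libraries. Klf6 reaches 41.6 at d4, against 17.6 at d2, and Klf9 is in place 6 at d4, against place 2 at d2.

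The genes with the pattern most like a member were sought over the 4 libraries by the Euclidean distance of centred log2(CPM + 0.5) values. For Klf1 they were Vgll4, Col4a6 and Pdlim3 (distances 0.0474 to 0.0765), for Klf2 Celf5, Ovol2 and Nat8l (0.0343 to 0.11), for Klf4 St3gal6, Bace2 and Smad9 (0.12 to 0.222) and for Klf5 Kdm1a, 2810021J22Rik and C1qbp (0.0238 to 0.0422). Over 4 libraries in 2 days this likeness mostly restates the size of the difference between days.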

How the data were processed

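Strand-specific libraries of total RNA from 2 d4 and 2 d2 cultures were sequenced by the authors in paired-end reads of 75 bp. The authors checked them with FastQC, trimmed them with cutadapt, aligned them to mm10/GRCm38 with STAR and counted them per gene with featureCounts, leaving out reads that mapped to more than 1 place or to more than 1 gene. The deposited values are raw counts with no normalization. The labels cite a forward-strand table; the table used here is named as reverse-strand, the setting in the study's methods. Symbols, positions and exon lengths came from GENCODE M21 (GRCm38), which held 55141 of the 55487 gene IDs, 54349 in the same version; Klf1 matched with its version dropped, so its length is that of an earlier version. A gene entered the test if, on either day, its pooled counts exceeded 0.5 CPM (proportion test, one-sided, adjusted p under 0.05), which left 14932. R 4.3.3 and edgeR 4.0.16 (TMM, glmQLFit, glmQLFTest, day only) gave the main test, DESeq2 1.42.0 and limma 3.58.1 alternatives, and the procedure was tested on simulated counts. The members and lists were chosen with earlier results of these data known. From each list at most 4 genes with the smallest adjusted p are named, and other names are marked; a few genes of these lists are not reported here. In the endothelial list the symbol Cnp had been entered for C-type natriuretic peptide but belongs to another gene; it did not pass. Levels per kb divide CPM by the union of exons. No exon of a KLF gene overlapped that of another gene on its strand. The MEF2, GC box and TGATAA motifs were added after the files were seen, and protein sequences were not used here.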

Additional observations from a re-analysis of the deposited data

How the results depend on the processing

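Of 190 refits of the 10 KLF genes under 19 alternatives, 166 kept direction and side of the threshold, 15 lost the call, 7 gained it and 2, both of Klf5, changed sign. All 15 losses came with a library left out. The log2 fold change then ranged from 4.05 to 4.97 for Klf1, from -4.51 to -3.96 for Klf2, from 0.16 to 0.49 for Klf3, from 3.23 to 4.55 for Klf4, from -0.27 to 0.13 for Klf5, from 1.04 to 1.43 for Klf6, from -0.96 to -0.77 for Klf7, from -2.52 to -2.08 for Klf9, from 0.11 to 0.30 for Klf10 and from 0.40 to 0.77 for Klf13. Klf7 gained a call at -0.96 with upper-quartile factors, -0.86 with no filter, -0.88 with DESeq2 and -0.87 at an adjusted p under 0.05. Over all genes, 1933 were higher and 1694 lower, and leaving out 1 library gave 0 to 2264 higher and 0 to 2458 lower. No filter gave 2901 and 2873, and an adjusted p under 0.05 gave 2991 and 2679. The replicate number as a block gave 3478 higher and 3496 lower, and with a GC correction 3063 and 2999; Klf7 was then called at -0.88 (adjusted p = 9.25e-05) and -0.86, and Klf13 with the block alone at 0.58 (adjusted p = 0.00602). The labels do not say that the numbers pair libraries; the deviations of same-numbered libraries correlated at 0.45 across genes. The difference of replicate 2 minus replicate 1 correlated with the GC content of the genes on both days (Spearman -0.48 at d4 and -0.7 at d2). The cause of the changes in calls was not tested. At d4, Klf2 sat at 3 counts per library, so its level there is limited by depth. With the longest transcript as the length, 7 of 20 levels per kb moved by more than the spread between libraries.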
